A study of Mus musculus with 6 samples.

Results

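The Hedgehog genes described here are the ligand Shh, its receptor Ptch1, the ligand-binding inhibitor Hhip, the co-receptors Boc, Cdon and Gas1, and the transcription factors Gli1, Gli2 and Gli3. They were taken by symbol from a table of 12065 genes. The rule did not use their values, but it was set with earlier results of these data known. Of these 9 genes 8 were measured, and Hhip was not measured here. RNA was read from the tips of limb buds of mouse embryos in 6 libraries, each a pool of 2 embryos. The labels do not say whether the tips came from forelimbs, hindlimbs or both. All embryos were homozygous for R26Meis2a-IRES-EYFP, a Rosa26 transgene that needs Cre recombinase to make Meis2a, the limb homeobox protein Meis2, and a fluorescent reporter. The 3 overexpressing pools also carried HoxB6CreER, a Cre that works only with tamoxifen, and the 3 control pools did not. All dams received 0.8 mg of 4-hydroxytamoxifen at embryonic day 8.3, so the controls shared the drug but not the Cre, and effects of Cre and of Meis2 cannot be told apart. Each genotype had 1 pool at 37 somites (replicate 1), 1 at 38 (replicate 2) and 1 at 39 (replicate 3). HoxB6 drives expression in the lateral plate mesoderm, from which the limb mesenchyme but not its ectoderm derives.

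Sonic hedgehog is secreted by a group of cells at the posterior edge of the limb bud and patterns the limb from thumb to little finger. It binds Patched1, which frees the membrane protein Smoothened, and the signal then passes through the primary cilium to the Gli proteins. Boc, Cdon and Gas1 present the ligand to Patched1, and their genes are known to be repressed where Hedgehog signalling is strong. Ptch1, Gli1 and Hhip are the classical genes that the signal turns on, while Gli3 is mainly a repressor that Shh keeps from being processed and Gli2 mainly an activator.

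The values are CPM, the reads of a gene scaled to the size of its library, and 7622698 to 15395447 whole reads per library were recovered from them. The least covered measured Hedgehog gene, Boc, had 161 reads in its shallowest library. Meis2 itself was higher in every overexpressing pool, at 28.2 to 41.3 CPM against 13.8 to 20.6 CPM in controls, and rose by 1.01 on the log2 scale (SE 0.16, limma adjusted p = 0.0185). The adjusted p of Meis2 was 0.0681, 0.0693 and 0.0651 when control replicate 2, control replicate 3 or overexpressing replicate 2 was left out. Limb mesenchyme markers such as Prrx1, at 421 CPM in controls, were all 13 measured. In the overexpressing pools 27 of 29 ectoderm markers were lower (9 fell), 14 of 15 endothelial markers were higher (1 rose) and all 15 erythroid markers were higher (3 rose). Here rose and fell mean an adjusted p under 0.05 in limma. Over all 12065 genes 0.787% rose and 0.68% fell, and by sign alone 6028 were higher and 6037 lower.

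Of the 8 Hedgehog genes measured, the 3 co-receptor genes Boc, Cdon and Gas1 rose in the tips with raised Meis2, and the other 5 did not pass. The called share was 1.47% of all 12065 genes in either direction 0.787% for rises and 0.68% for falls, at a Benjamini-Hochberg adjusted p under 0.05 in limma. No Hedgehog gene fell in limma, where 1 was lower at an unadjusted p under 0.05, or in edgeR, while DESeq2 called Shh lower. At an unadjusted p under 0.05 there were 6 of the 8 (5 higher and 1 lower), beside 15.9% of all genes. The groups did not overlap for 5 of the 8, all higher, against 20.7% of all genes in either direction and 10.4% in the higher direction. The median log2 fold change of the 8 was 0.32, beside -0.00 over all genes. These are bulk values, in which fewer cells of a type and less RNA per cell cannot be told apart.

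Boc (ENSMUSG00000022687), a membrane protein of the immunoglobulin superfamily that binds Shh, was at 19.3, 18.7 and 19.3 CPM in control replicates 1 to 3. It was at 26.7, 29.9 and 29.9 CPM in overexpressing replicates 1 to 3. The control values were nearly equal and every overexpressing pool lay above them. The mean rose 1.51-fold, from 19.1 ± 0.366 to 28.8 ± 1.87 CPM (SD, n = 3 each), which is a log2 fold change of 0.57 (SE 0.08, limma adjusted p = 0.0115). Boc was called in 16 of 17 fits (the limma fit and its alternatives), the exception being the fit without overexpressing replicate 2 (adjusted p = 0.0637, log2 fold change 0.54).

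Cdon (ENSMUSG00000038119), the closest relative of Boc, had 30.1, 27.8 and 25.6 CPM in control replicates 1 to 3 and 40.5, 39.1 and 37.6 CPM in overexpressing replicates 1 to 3. The groups did not overlap, and the overexpressing pool was higher by 0.42, 0.48 and 0.54 on the log2 scale at 37, 38 and 39 somites. The mean of Cdon was 27.9 ± 2.24 CPM in controls and rose 1.40-fold to 39.1 ± 1.43 CPM (log2 fold change 0.48, SE 0.08, limma adjusted p = 0.0226). Gas1 (ENSMUSG00000052957), a co-receptor anchored to the membrane by a lipid, had 56.4, 68.2 and 58.6 CPM in controls and 76.9, 86.6 and 97.5 CPM in overexpressing replicates 1 to 3. The lowest overexpressing pool lay above the highest control. Its mean rose 1.43-fold, from 61.0 ± 6.31 to 87.0 ± 10.3 CPM (log2 fold change 0.50, SE 0.10, limma adjusted p = 0.0388). Cdon and Gas1 were each called in 12 of 17 fits. The adjusted p of Cdon was 0.0690, 0.0969, 0.0606 and 0.0876 without control replicate 2, control replicate 3, overexpressing replicate 1 or overexpressing replicate 2. That of Gas1 was 0.107, 0.144, 0.121 and 0.0811 without control replicate 1, control replicate 3, overexpressing replicate 2 or overexpressing replicate 3. Neither was called with robust eBayes (0.0613 and 0.105). A gene model antisense to Gas1 is annotated in GENCODE M21, and reads of the pair cannot be told apart without strand. Without control replicate 3 the count of called Hedgehog genes was 1, and without overexpressing replicate 2 it was 0.

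Other cell types' markers moved with these rises. The summed level of the 29 ectoderm markers ran from 926 to 990 CPM over the controls and from 681 to 745 CPM over the overexpressing tips. The 15 endothelial markers summed to 280 to 321 against 353 to 369 CPM and the 15 erythroid markers to 2597 to 3786 against 4432 to 5271 CPM. The 13 limb mesenchyme markers summed to 1822 to 2171 CPM against 1716 to 2028 CPM, with 8 higher, 5 lower and 0 called by limma or edgeR (5 at an unadjusted p under 0.05, and 1 higher by DESeq2). This sum hides moves in both directions. In it the mean of Hoxd13 went from 638 ± 188 to 381 ± 122 CPM and that of Hoxa13 from 148 ± 41.1 to 87.0 ± 30.9 CPM. Both overlapped between genotypes and did not pass (limma adjusted p = 0.185 for each). The mean of Prrx1 went from 421 to 541 CPM, with no overlap between genotypes. Of nerve and neural crest markers 5 were measured (41.4 to 47.2 against 38.4 to 42.1 CPM), and Sox10, Foxd3 and S100b were not measured here. Of muscle precursor markers Chrna1 and Met were measured (15.0 to 19.6 against 13.6 to 26.9 CPM), and Pax3, Lbx1, Pax7, Myf5, Myod1 and Myog were not. The part of these other cell types in the rise of Boc, Cdon and Gas1 was not tested.

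**Figure D1:**
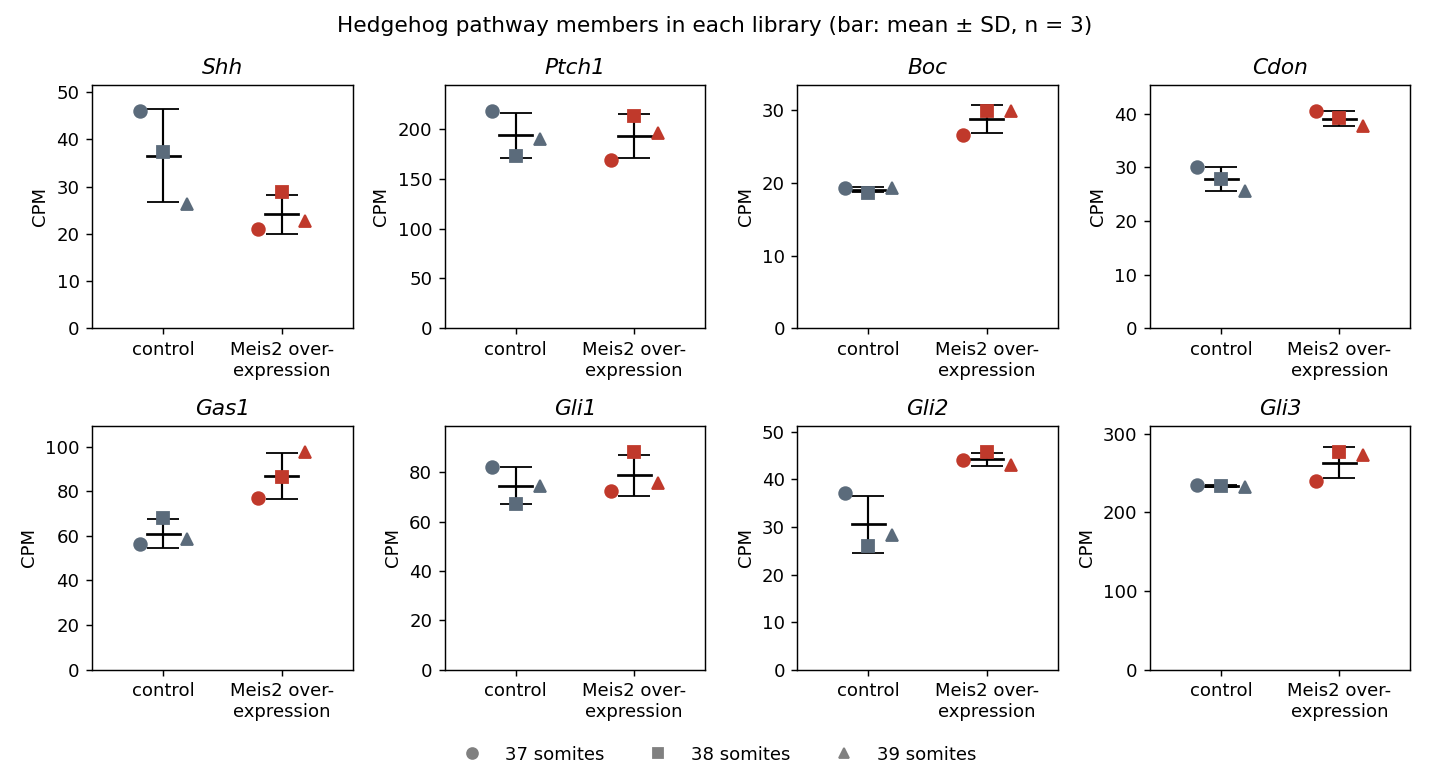
Level of each measured Hedgehog gene in CPM (vertical axis, from 0) in the 3 control and 3 overexpressing libraries, with the marker shape giving the somite stage and the bar the mean ± SD. Boc, Cdon, Gas1, Gli2 and Gli3 do not overlap between genotypes, and Shh, Ptch1 and Gli1 do.

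The 250 bases before the annotated start are shown for Gli2, Cdon and Gas1, the genes higher by 1.40-fold to 1.45-fold for which a window was given, and were searched for letters that Gli and Meis proteins are known to bind. Windows were matched for 6 of the 9 genes (Gli2, Hhip, Cdon, Gli3, Gas1 and Ptch1) in RefSeq on build GRCm38.p6, a later build than the one used for the reads. The 3 motifs searched, on both strands, were the Gli consensus GACCACCCA, the core CCACCC that lies inside it, and, for Meis proteins, TGACAG. Capitals mark a match to CCACCC or its reverse complement.
Gli2 window, chr1:119053620-119053869, minus strand: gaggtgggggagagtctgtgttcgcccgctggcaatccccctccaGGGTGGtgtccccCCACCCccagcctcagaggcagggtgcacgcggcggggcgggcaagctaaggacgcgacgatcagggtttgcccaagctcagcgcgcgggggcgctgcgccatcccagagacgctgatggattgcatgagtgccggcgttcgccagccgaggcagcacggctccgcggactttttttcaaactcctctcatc
Cdon window, chr9:35451826-35452075, plus strand: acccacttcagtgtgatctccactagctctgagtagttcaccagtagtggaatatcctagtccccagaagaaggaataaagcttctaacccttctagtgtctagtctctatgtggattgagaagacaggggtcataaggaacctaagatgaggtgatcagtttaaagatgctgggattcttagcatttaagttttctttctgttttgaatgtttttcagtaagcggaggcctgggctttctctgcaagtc
Gas1 window, chr13:60177536-60177785, minus strand: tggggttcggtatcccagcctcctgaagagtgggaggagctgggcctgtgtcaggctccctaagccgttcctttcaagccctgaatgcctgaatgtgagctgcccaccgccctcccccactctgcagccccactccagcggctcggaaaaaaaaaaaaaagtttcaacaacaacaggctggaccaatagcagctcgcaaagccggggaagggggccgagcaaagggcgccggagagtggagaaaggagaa
The Gli2 window holds 2 matches to the core, starting 205 and 192 bases before the start, and the windows of Cdon and Gas1 hold 0. Gli3 and Hhip hold 1 each and Ptch1 holds 0. Over 32851 windows of the same length, 28.1% hold the core, 0.225% the Gli consensus and 15.9% the Meis core. Neither the Gli consensus nor the Meis core occurs in any of the 6 windows, which says only that these letters are not there. The Cdon window has 42.8% G and C and 1 CpG, the Gli2 window 67.2% and 22, and the Gas1 window 58.8% and 10.

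Shh (ENSMUSG00000002633), the ligand, stood lower in overexpressing tips but did not pass. Control replicates 1 to 3 had 46.0, 37.3 and 26.3 CPM and overexpressing replicates 1 to 3 had 21.04, 28.9 and 22.7 CPM. The overexpressing pool was lower at each stage, yet the groups overlapped, since control replicate 3 lay below overexpressing replicate 2. The difference on the log2 scale was -1.09 at 37 somites, -0.36 at 38 and -0.21 at 39. Over all libraries the log2 fold change was -0.55 (SE 0.18, 95% interval -0.95 to -0.15, limma adjusted p = 0.182). DESeq2 on the recovered reads called it lower (-0.61, adjusted p = 0.0222), and the adjusted p ran from 0.0222 to 0.388 over the alternatives. Antisense gene models also overlap Shh and Gli3.

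Ptch1 (ENSMUSG00000021466) and Gli1 (ENSMUSG00000025407), the genes that report Hedgehog signalling, differed little in mean between genotypes. Ptch1 had 218, 173 and 190 CPM in control replicates 1 to 3 and 169, 213 and 196 CPM in overexpressing replicates 1 to 3. The groups overlapped fully and the means were 194 ± 22.9 and 193 ± 22.4 CPM. The log2 fold change of Ptch1 was -0.01 (95% interval -0.23 to 0.22, limma adjusted p = 0.981), and its sign turned without control replicate 1 or overexpressing replicate 1 (0.08 and 0.09). Gli1 had 82.3, 67.2 and 74.5 CPM in control replicates 1 to 3 and 72.5, 88.2 and 75.7 CPM in overexpressing replicates 1 to 3. Its groups overlapped too, with a log2 fold change of 0.08 (95% interval -0.13 to 0.28, limma adjusted p = 0.717) that was -0.01 without overexpressing replicate 2. A gene antisense to part of Gli1, Arhgap9, averaged 5.74 CPM in the control and 6.27 CPM in the overexpressing pools.

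The 2 genes followed each other from library to library. Control replicate 1 and overexpressing replicate 2 were the highest for both, and control replicate 2 and overexpressing replicate 1 the lowest. Over the 6 libraries Pearson's r between Ptch1 and Gli1 was 0.89 (Spearman's rho 0.89) on log2(CPM + 1). For Shh and Ptch1 r was 0.43 (rho 0.60). These are descriptions over 6 libraries, and within each library both genes of a pair share its depth and scaling.

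Gli2 (ENSMUSG00000048402), which encodes the main activator, was higher in every overexpressing pool but missed the threshold. It had 37.2, 25.997 and 28.4 CPM in control replicates 1 to 3 and 44.1, 45.7 and 42.9 CPM in overexpressing replicates 1 to 3. The overexpressing values were tight, and control replicate 1 lay apart from the other control values. The mean was 30.5 ± 5.91 CPM for controls and 44.3 ± 1.39 CPM for overexpressing tips (log2 fold change 0.54, SE 0.12, 95% interval 0.28 to 0.80, limma adjusted p = 0.0587). Gli2 passed with DESeq2 (adjusted p = 0.00450), with somite number in the limma fit (0.0270), with somite number in edgeR (0.0267) and without control replicate 1 (0.00803), and its adjusted p lay between 0.00450 and 0.196 in all.

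Gli3 (ENSMUSG00000021318), the repressor gene, had 234, 233 and 232 CPM in control replicates 1 to 3. It had 240, 276 and 273 CPM in overexpressing replicates 1 to 3. The groups did not overlap, although overexpressing replicate 1 lay close to the controls. The mean was 1.13 times the control mean (log2 fold change 0.17, SE 0.06, 95% interval 0.03 to 0.31, limma adjusted p = 0.230), and no fit called it.

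**Figure D2:**
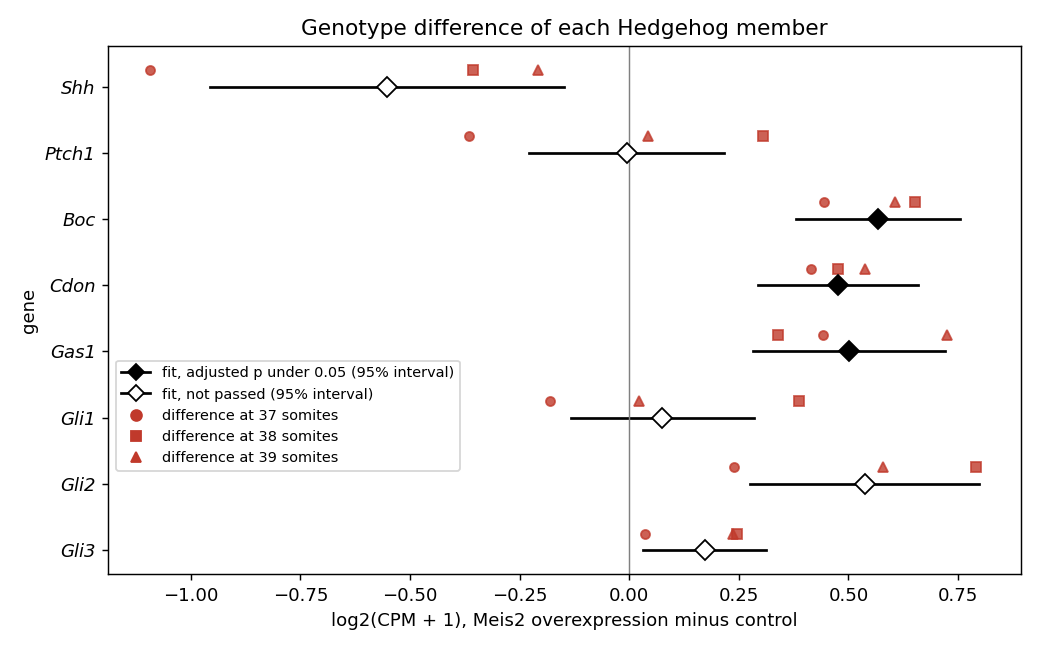
Difference in log2(CPM + 1), overexpressing minus control, for each Hedgehog gene, with diamonds and lines for the limma estimate and its 95% interval and small markers for the difference at 37, 38 and 39 somites. Filled diamonds, those of Boc (0.57), Cdon (0.48) and Gas1 (0.50), passed the threshold, and Shh lies at -0.55 with its largest difference at 37 somites.

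Per kilobase of the longest coding transcript in GENCODE M21, Gli3 was the most abundant of the 8 in controls, at 28.5 ± 0.152 CPM per kb, followed by Ptch1 at 25.1 ± 2.96 and Gas1 at 20.6 ± 2.13 CPM per kb. The highest control value of Ptch1 was 28.2 and the lowest of Gli3 28.4 CPM per kb, so those neighbours did not overlap, while Ptch1 and Gas1 did. The lengths come from annotation and not from the transcripts made in these tips. The order of the genes, and the small gap between Gli3 and Ptch1, depend on them. Gli1 came next at 18.4 ± 1.86 CPM per kb, overlapping Gas1, and then Shh at 12.8 ± 3.46 CPM per kb. Gli2 (4.60 ± 0.891), Boc (4.29 ± 0.0822) and Cdon (3.71 ± 0.299 CPM per kb) were the lowest, with overlap between Gli2 and both others. In overexpressing tips Gas1 stood at 29.4 ± 3.49 CPM per kb beside Gli3 at 32.2 ± 2.45 and Ptch1 at 24.9 ± 2.90 CPM per kb. The lowest overexpressing value of Shh, 7.39 CPM per kb, lay above the highest of Gli2, 6.89 CPM per kb.

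Ratios of genes within a library do not depend on how it was scaled. The log2 ratio of Ptch1, the target, to Shh, the ligand, was 2.24, 2.21 and 2.85 in control replicates 1 to 3 and 3.005, 2.89 and 3.11 in overexpressing replicates 1 to 3. The groups did not overlap, with control replicate 3 close to the overexpressing pools, and the difference of 0.57 had an exact two-sided permutation p of 0.1, the smallest that 3 against 3 allows. The log2 ratio of Gli1 to Gli3 was -1.65 ± 0.143 in controls and -1.74 ± 0.103 in overexpressing tips (exact permutation p = 0.4, n = 3 each). That of Gli2 to Gli3 was -2.95 ± 0.265 and -2.57 ± 0.115 (exact permutation p = 0.2, n = 3 each), with control replicate 1 inside the overexpressing range. None of these 3 p-values passes, with or without adjustment. With ratios chosen after the values were seen, and so not tested, Boc to Ptch1 went from -3.34 ± 0.147 to -2.74 ± 0.088 on the log2 scale, Cdon to Ptch1 from -2.79 ± 0.140 to -2.30 ± 0.207, and Gas1 to Ptch1 from -1.66 ± 0.308 to -1.15 ± 0.148. In all 3 the genotypes did not overlap, though for Gas1 to Ptch1 control replicate 2 (-1.34) lay close to overexpressing replicate 2 (-1.30). Since the mean of Ptch1 differed little, these 3 shifts restate the rises of Boc, Cdon and Gas1.

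**Figure D3:**
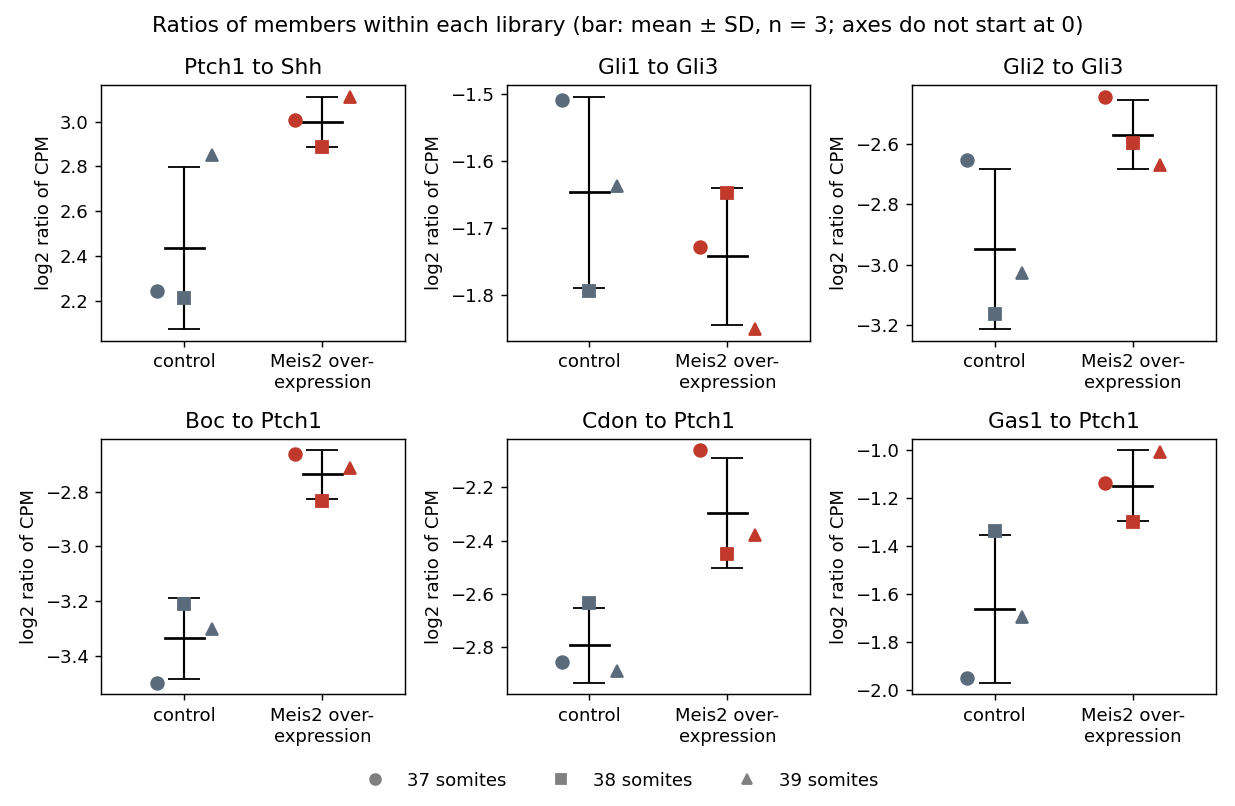
Log2 ratio of the CPM of 2 Hedgehog genes within each library (vertical axis, not starting at 0), with the marker shape giving the somite stage and the bar the mean ± SD of 3 libraries. Ptch1 to Shh, Boc to Ptch1, Cdon to Ptch1 and Gas1 to Ptch1 do not overlap between genotypes, and Gli1 to Gli3 and Gli2 to Gli3 do.

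Somite stage moved none of the 8 genes past the threshold, against 0.356% of all genes in the fit with genotype and somite number (limma; 0 of the 8 at an unadjusted p under 0.05, beside 6.28% of all genes, and 0 by edgeR and DESeq2). The slope of Shh was -0.17 per somite on the log2 scale (SE 0.10, adjusted p = 0.907). Shh went from 46.0 to 26.3 CPM between 37 and 39 somites in controls, and without overexpressing replicate 1 its slope was -0.38 per somite (adjusted p = 0.0273). The slope shrank to -0.06 per somite without control replicate 1 (adjusted p = 0.916) and to -0.02 without control replicate 3 (adjusted p = 1.00). Gas1 had a slope of 0.10 and Gli2 one of -0.10 per somite. Whether slopes differed between genotypes was tested with an interaction term, which passed for 0 of the 8 genes (limma, edgeR and DESeq2) and 0% of all genes in limma, where 240 genes (1.99%) had an unadjusted p under 0.05. Among the 8 that was Shh alone, whose slope was 0.44 per somite higher in overexpressing tips (SE 0.15, unadjusted p = 0.0120, adjusted p = 1.00).

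The rest of the pathway between ligand and Gli proteins had no called gene by limma, edgeR or DESeq2. Over all 12065 genes limma called 1.47%, edgeR 171 genes and DESeq2 290, so a count of 0 in lists of this size says little. Scube1, of the list for ligand release and spread, was called higher when control replicate 1 was left out. Of other ligands and receptors Smo, the signalling membrane protein that Patched1 restrains, was at 218 ± 14.7 and 230 ± 16.2 CPM in control and overexpressing tips (log2 fold change 0.08, limma adjusted p = 0.592). Smo has a near-identical gene, Gm4066, in GENCODE M21, so its value is uncertain. Ihh, Dhh and Lrp2 were not measured here. Of 11 genes for ligand lipidation, release and spread 0 of 11 passed and 4 had an unadjusted p under 0.05 (15.9% of all genes did), with a median log2 fold change of 0.04. The heparan sulphate proteoglycans Gpc6 (0.31, limma adjusted p = 0.0911) and Gpc4 (-0.31, 0.144) had the smallest p and lay on opposite sides. Disp1, which releases the lipid-bearing ligand from its source cells, was at 32.6 ± 3.53 and 39.7 ± 1.43 CPM.

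Of 28 genes for signal transduction and Gli processing 0 of 28 passed, beside 1.47% of all genes called in limma. Of the 28, 3 had an unadjusted p under 0.05, and the median log2 fold change was 0.05. Prkaca, a catalytic subunit of the protein kinase A that marks Gli proteins for processing, was at 0.22 (limma adjusted p = 0.136) and Arrb1, a beta-arrestin, at 0.20 (0.232). Sufu, which holds Gli proteins in the cytoplasm, had means of 73.7 ± 5.44 and 76.8 ± 8.47 CPM in control and overexpressing tips. Of 27 genes of the primary cilium 0 of 27 passed, 7 had an unadjusted p under 0.05 (1 higher and 6 lower), beside 15.9% of all genes, and the median was -0.01. Rpgrip1l, a protein of the ciliary transition zone, was at -0.30 (limma adjusted p = 0.153) and Ift80, of the intraflagellar transport machinery, at -0.22 (0.185).

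Among limb genes that need or respond to Shh, Fgf4 was the 1 of 16 that fell and 0 rose in limma, edgeR or DESeq2 (1 higher and 4 lower at an unadjusted p under 0.05), with a median log2 fold change of -0.16. In limma 1.47% of all genes were called and 15.9% had an unadjusted p under 0.05. The others lower at that unadjusted level were Hoxd11 (-0.30, limma adjusted p = 0.153), Hoxd13 (-0.74, 0.185) and Jag1 (-0.65, 0.298), and the higher one was Mycn (0.18, 0.164), all named after their values were seen. With somite number in the fit, in limma or in edgeR, the list had 4 genes lower and called (Fgf4, Hoxd12, Hoxd13 and Jag1) and 0 higher. More genes were called over the whole table in these fits too, 340 in limma and 334 in edgeR, beside 177 in limma without somite number. Fgf4, a ligand of the apical ridge that Shh sustains through Grem1, had 31.8, 29.5 and 31.0 CPM in control replicates 1 to 3 and 14.7, 13.99 and 23.1 CPM in overexpressing replicates 1 to 3. Every overexpressing pool lay below the controls (log2 fold change -0.83, SE 0.16, limma adjusted p = 0.0347). The adjusted p of Fgf4 was 0.0758 to 0.118 when any library but overexpressing replicate 3 was left out. Fgf4 and Fgf8 are also on the list of ectoderm markers, of which 27 of 29 were lower. Grem1, the BMP antagonist between Shh and the ridge, had means of 193 ± 40.4 and 195 ± 19.4 CPM in controls and overexpressing tips. Hand2, which acts upstream of Shh, was at 108 ± 15.5 and 90.2 ± 15.4 CPM, and Bmp2 at 13.8 ± 2.09 and 10.9 ± 2.14 CPM. Grem1, Hand2 and Bmp2 did not pass, and an antisense transcript, Hand2os1, shares sequence with Hand2.

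Of 26 measured regulators of Shh in the limb, 2 rose, 2 fell and 22 did not pass, with a median log2 fold change of 0.01. In limma 5 were higher and 5 lower at an unadjusted p under 0.05. Over all genes 1.47% were called and 15.9% had an unadjusted p under 0.05. By edgeR 2 were higher and 2 lower, and by DESeq2 4 were higher and 2 lower, with Ets1 and Hoxd9 added. Alx4, a homeobox repressor that keeps Shh out of the anterior limb, had 6.44, 7.33 and 7.67 CPM in control replicates 1 to 3 and 16.3, 14.9 and 17.5 CPM in overexpressing replicates 1 to 3. The lowest overexpressing pool lay well above the highest control. Its log2 fold change was 1.08 (SE 0.11, limma adjusted p = 0.00129), and it was called in every alternative. Zbtb16, a zinc finger gene of limb patterning, rose by 0.70 (limma adjusted p = 0.0409, and 0.0549 to 0.148 when any library but control replicate 1 was left out). Fgf8, the ridge ligand that helps to sustain Shh, fell from 94.6 ± 5.35 to 56.5 ± 10.2 CPM (log2 fold change -0.75, limma adjusted p = 0.0114), and Fgf4 is the other that fell, both being ectoderm markers too. The adjusted p of Fgf8 was 0.0562 without control replicate 3 and 0.0519 without overexpressing replicate 2. Over all these lists together, without the Hedgehog genes, 4 of 101 measured genes were called, beside 1.47% of all genes. Leaving out control replicate 2 gave 2 calls and leaving out control replicate 3 gave 1. Leaving out overexpressing replicate 1 gave 2 and leaving out overexpressing replicate 2 gave 1. The count was 9 with somite number in the fit, where Hoxa13, Hoxd12, Hoxd13 and Jag1 were added as lower and Hoxd9 as higher. In limma that fit called 340 genes over the whole table, beside 177 without somite number.

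**Figure D4:**
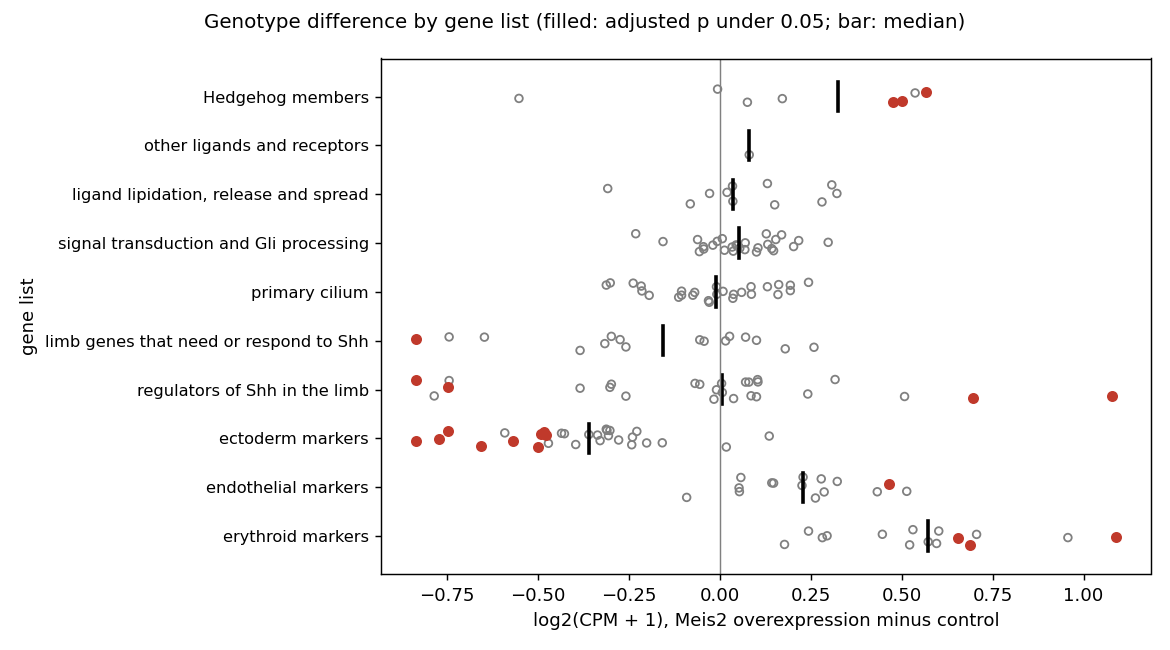
Difference in log2(CPM + 1), overexpressing minus control, of each gene of the Hedgehog set, the pathway lists and 3 marker lists (rows), with filled points for an adjusted p under 0.05 in limma and a bar at each list's median. The median of the Hedgehog genes is 0.32, those of the signal transduction and cilium lists are 0.05 and -0.01, and the ectoderm markers lie mostly below 0 with a median of -0.36.

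Genes whose pattern was most like that of 3 Hedgehog genes were sought by Pearson's r on log2(CPM + 1) over the 6 libraries, with a floor of 5 CPM on the mean and unnamed gene models skipped. For Shh these were Edem3, Cdkl3, Parn, Nme2 and Ptges (r from 0.972 to 0.992). For Ptch1 they were Phgdh, Sdf4, Med11, Axin2, a feedback gene of WNT signalling, and Tcf3 (0.975 to 0.992). For Gli3 they were Rgag4, Fam168a, Kif13a, Pigs and Aldh2 (0.985 to 0.988). Axin2 had 83.1, 72.1 and 75.3 CPM in control replicates 1 to 3 and 67.6, 82.4 and 76.3 CPM in overexpressing replicates 1 to 3. Axin2 followed the library order of Ptch1, but it was picked for that likeness. All these r values are the highest of a search through the table over only 6 libraries, and such values can arise from the search itself. Any link between these genes was not tested. Nme2, Phgdh and Pigs have near-identical genes in GENCODE M21, so their values are uncertain.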

How the data were processed

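RNA of the 6 pools was made into TruSeq RNA v2 libraries, per the labels' protocols. Per the submitters' processing notes, the tools were cutadapt 1.2.1, edgeR and RSEM 1.17 and the build was NCBIM37. The strand setting and the filter on low genes are not given in the sources used here. The authors deposited CPM on a scaled library size. Every deposited value was a whole multiple of 1 step per library within 0.001 (100% of values), so reads were recovered; a count of 0 would allow 3 reads, or 0.194 to 0.388 CPM, for counting error only.

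Overexpressing and control pools were set against each other in limma 3.58.1 (R 4.3.3, eBayes with a trend, 6.03 prior degrees of freedom) on log2(CPM + 1) over all 12065 genes, two-sided, with no filter added to the deposited table. The threshold was an adjusted p under 0.05 (Benjamini-Hochberg). Fold changes on this scale understate the change of low genes. Stage slopes came from genotype plus somite number. In the main fit p-values rest on the spread between pools of a genotype, moderated by limma over all genes. That spread includes stage, since each genotype had 1 pool per stage. An exact test of 3 against 3 cannot give a p below 0.1. The alternatives were edgeR 4.0.16, DESeq2 1.42.0, pseudocounts of 0.1 and 5, a filter of 5 CPM, another scaling, robust eBayes, somite number as a covariate, a replicate block and each library left out. The edgeR fit with somite number and the ratios to Ptch1 were chosen after seeing the data. The code was also run on simulated counts with 1 setting of spread for all genes, which does not show how the fits perform on these pools.

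Named genes were the 9 Hedgehog genes, Meis2, up to 4 called genes of each list or else the 2 with the smallest p, and the 5 named genes most alike to each of Shh, Ptch1 and Gli3. Prrx1, Disp1, Sufu, Grem1, Hand2 and Bmp2 were named for their roles after their values were seen. Hoxd13 and Hoxa13 were named among the limb mesenchyme markers for their moves, also after their values were seen. Some list genes are not reported here and were left out of the list counts. The genes and lists were chosen with earlier results of these data known. Overlaps and near-identical copies were sought in GENCODE M21 transcripts.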

Additional observations from a re-analysis of the deposited data

How the results depend on the processing

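Of the 8 Hedgehog genes, limma called 3 by genotype, and this count was 1 with robust eBayes without a trend, 5 with DESeq2 and 0 to 3 with 1 library left out; it stayed at 3 or 4 under the other alternatives. The count of called pathway genes, 4 in limma, was 1 with robust eBayes without a trend, 6 with DESeq2 and 8 with the replicate block. It was 9 with somite number as a covariate and 9 with edgeR and somite number (chosen after seeing the data). With 1 library left out it was 1 to 4. By stage the count was 0, or 0 to 1 with 1 library left out. The ratio differences kept their sign, from 0.45 to 0.77 for Ptch1 to Shh, -0.17 to -0.03 for Gli1 to Gli3 and 0.27 to 0.53 for Gli2 to Gli3, moves below the SD pooled over both genotypes but, for Ptch1 to Shh and Gli2 to Gli3, above that of the overexpressing pools alone. With the replicate block they were 0.57, -0.10 and 0.38. These had to equal the main values, since each block holds 1 pool of each genotype. With 1 library left out the log2 fold change ran from -0.085 to 0.085 for Ptch1 and from -0.007 to 0.148 for Gli1, so that both changed sign. Slopes per somite turned for Ptch1 (-0.001 with edgeR and with DESeq2, and -0.103 to 0.113 with 1 library left out), Gli1 (-0.100 to 0.054), Gli2 (-0.169 to 0.009), Gli3 (-0.010 to 0.073) and Boc (-0.001 to 0.072). Over all genes limma called 177, beside 86 with robust eBayes, 290 with DESeq2, 340 with somite number, 334 with edgeR and somite number, and 56 to 162 with 1 library left out. The planned ratio of Hhip to Ptch1 had no value, since Hhip was not measured here. The cause of these changes was not tested. Same-numbered pools did not all deviate together: over all genes the correlations were 0.03 for replicates 1, -0.15 for replicates 2 and 0.38 for replicates 3. Control replicate 3 correlated best with overexpressing replicate 3, but control replicates 1 and 2 did so with overexpressing replicates 2 and 1, so the numbers were not taken as a pairing. The block left the called Hedgehog genes at 3 and gave 258 calls over all genes, beside 177. The precision rests on 3 pools a genotype.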
